A study of Mus musculus with 30 samples.

Results

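Cultured mesenchyme of the distal hindlimb bud was compared with cultured mesenchyme of the distal forelimb bud. The comparison rests on 16 of the 30 arrays of a study of cartilage formation and BMP signals in the early limb. The 8 arrays of the population that the labels call early (distal hindlimb) and the 8 arrays called intermediate (distal forelimb) were taken from days 1 and 2 of culture. All cells came from E10.5 embryos of the outbred CD-1 mouse strain, and the labels name no other genotype. They were grown at high density in medium with serum, either as control or with 20 ng/ml BMP4 added at the start of culture. Each population thus had 2 arrays in each of 4 combinations of day and treatment, which the labels call biological replicates. The labels number them 1 and 2 in every combination. They do not say whether arrays of a population with the same number share a preparation of cells across days and treatments. RNA came from cultures of about 280 embryos, so cells of many embryos were pooled. The early cells came from the distal 0.5 of the hindlimb bud and the intermediate cells from the distal 1/3 of the forelimb bud, so the limb, its lag in development and the length of bud taken cannot be told apart. A late population of 8 arrays, from the rest of the forelimb bud nearer the body, is set beside the 2 where it helps to place a gene.

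The fore- and hindlimb buds start from nearly the same mesenchyme, and a small set of transcription factors sets them apart. Tbx5 is needed for the forelimb bud to form, while Pitx1, Tbx4 and Isl1 belong to the hindlimb programme. The hindlimb bud of the mouse emerges somewhat later than the forelimb bud. Along the limb, Meis factors mark the part near the body and the 5′ Hoxd and Hoxa genes mark successively more distal parts, while BMP proteins drive condensation, cartilage and cell death depending on stage.

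Levels are given as log2(signal + 16) of the deposited linear signal, a scale on which a signal of 0 lies at 4 and on which differences of dim genes are understated. Of 15139 genes tested, 314 (2.07%) passed an adjusted p of 0.05 in limma's moderated test with day and treatment as a block. Of these, 147 (0.971%) were higher and 167 (1.10%) lower in the distal hindlimb cultures. Centring each array on its median gave 331 genes, of which 112 were higher and 219 lower. Since same-numbered replicates of the populations deviated together, the test was also run with the replicate number in the block, which called 486 genes (3.21%), 235 (1.55%) higher and 251 (1.66%) lower, and kept 302 of the 314. A difference of at least 1 on the log2 scale was reached by 62 of the 314 genes (0.410% of all genes tested). The arrays of the populations did not overlap for 51 of all 15139 genes (0.337%), and 49 of these were among the 314. The same sign in all 4 combinations of day and treatment was shown by 97.8% of the called genes and by 20.6% of all genes tested. The called genes were picked on these same arrays, so the first share was largely set by that choice and tests nothing. Taken singly, none of the 4 combinations called 234 of the 314 genes. An unadjusted p under 0.05 in limma was reached by 1958 of the 15139 genes. In the plot of difference against level, a few regulators stood far from the bulk: 3 rises and 1 fall exceeded 3 on the log2 scale.

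**Figure D1:**
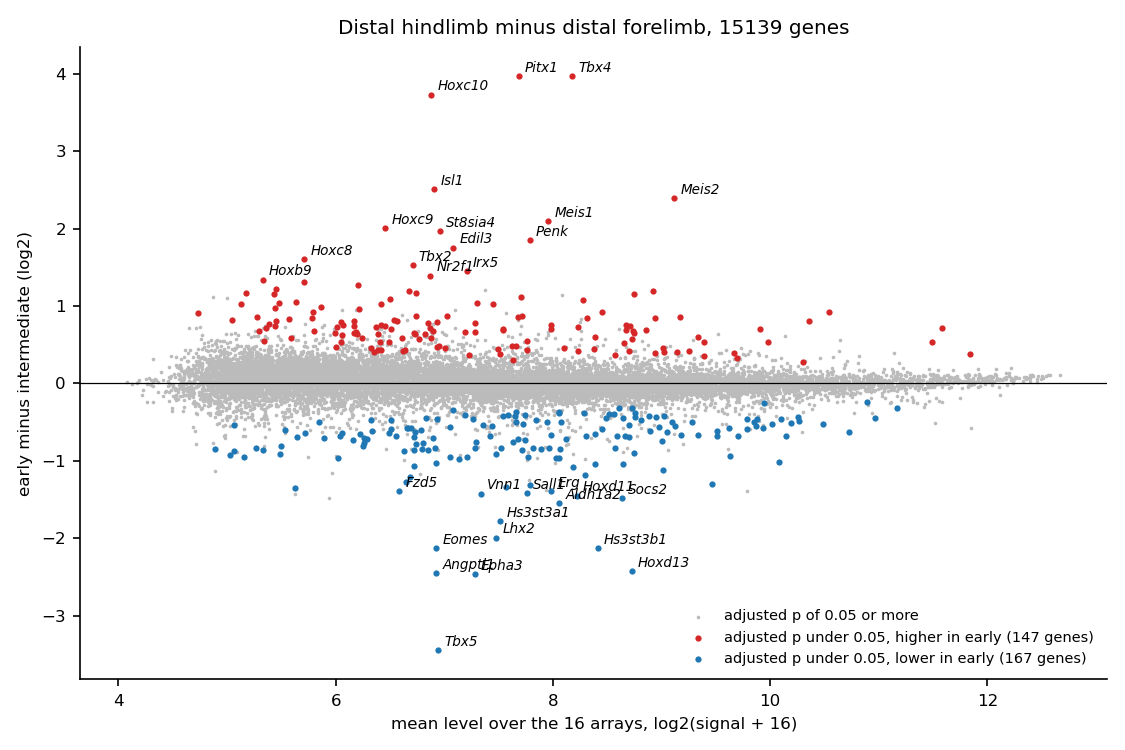
Difference between distal hindlimb (early) and distal forelimb (intermediate) cultures on the log2 scale against the mean level over the 16 arrays, for 15139 genes. Coloured points passed an adjusted p of 0.05 (147 higher in red, 167 lower in blue), and the 15 largest rises and 15 largest falls are named.

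The genes that define the limb type followed the labels on every cultured array. Pitx1, the homeodomain factor of hindlimb identity, lay at 9.37, 9.69 and 9.95 (lowest, median and highest of 8) in distal hindlimb cultures and at 4.75, 5.86 and 6.28 in distal forelimb cultures. Tbx4, the T-box factor of hindlimb growth, lay at 9.93, 10.13 and 10.46 against 5.82, 6.18 and 6.51. Tbx5, its forelimb counterpart, lay at 4.73, 5.03 and 5.85 against 7.96, 8.69 and 9.0. No hindlimb array came near any forelimb array for these genes, as the plot of levels by array shows. Pitx1 was higher by 3.98 ± 0.17 (log2, SE, 8 against 8 arrays; adjusted p = 5.59e-10), which is 15.8-fold on this scale. The difference of Tbx4 was 3.98 ± 0.11 (adjusted p = 1.33e-12), and that of Tbx5 was -3.45 ± 0.19 (adjusted p = 2.18e-08). All 3 passed in each of the 4 combinations of day and treatment, as did Isl1, Hoxc8, Hoxc10, Lhx2 and Hs3st3a1 and no other gene. The late population, also forelimb, had Pitx1 at 5.22 to 6.66, Tbx4 at 5.58 to 6.55 and Tbx5 at 8.32 to 9.19, ranges that overlap those of the distal forelimb.

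**Figure D2:**
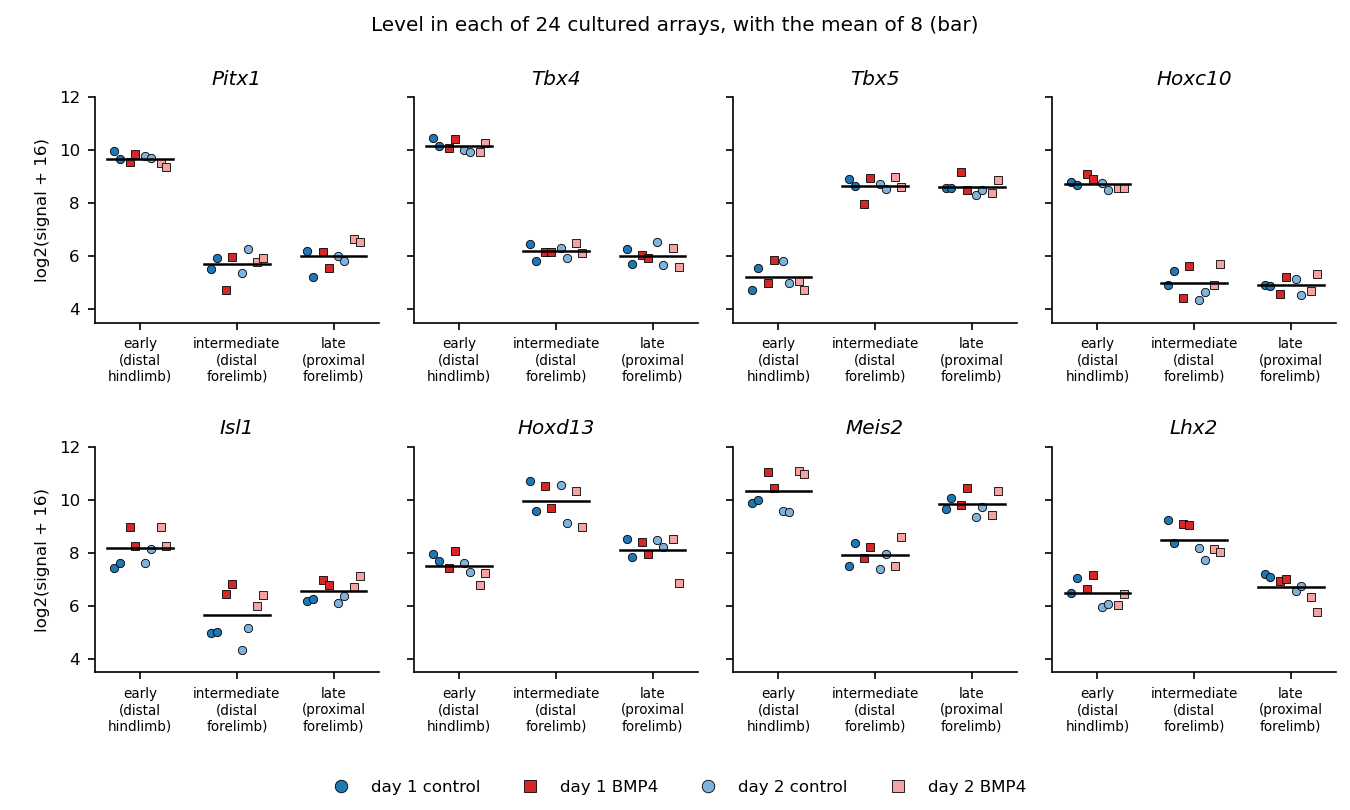
Level of 8 genes, as log2(signal + 16), on each of the 24 arrays of days 1 and 2 by population, with the day and treatment as colour and shape and the mean of 8 arrays as a bar. Pitx1, Tbx4, Hoxc10 and Isl1 are higher and Tbx5, Hoxd13 and Lhx2 lower in the distal hindlimb than on every distal forelimb array, and the late population lies at the forelimb's level for the first 3 and for Tbx5 but close to the hindlimb's for Meis2 and Lhx2.

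Isl1, a LIM-homeodomain factor needed for the mouse hindlimb bud to start, was higher by 2.52 ± 0.18 (adjusted p = 4.97e-07). On the control arrays it lay at 7.43, 7.61, 7.63 and 8.15 in the hindlimb and at 4.99, 5.02, 4.34 and 5.17 in the forelimb. With BMP4 it lay at 8.97, 8.28, 8.99 and 8.28 in the hindlimb and at 6.44, 6.84, 5.99 and 6.40 in the forelimb. The BMP4 arrays were the higher ones in both populations, and the gap between the populations was present with either medium. Unlike Pitx1 and Tbx4, Isl1 was intermediate in the late population, at 6.12, 6.55 and 7.12. All 4 tested genes of the hindlimb list (Pitx1, Tbx4, Isl1 and Hoxc10) were higher, beside 0.971% of all genes tested. This and the other gene lists were written with earlier results of these data known. The shares called, here and below, thus describe the lists and are no independent test. The median of these 4 genes was 3.86 against 0.0181 over all genes. Of the 7 genes listed for the forelimb, Tbx5 and Mecom (-0.44 ± 0.09, adjusted p = 0.0160) were lower, Hoxc4, Hoxc5, Hoxc6 and Hoxc8 were higher, and Sall4, a zinc-finger partner of Tbx5, had a difference of 0.09 ± 0.22 (adjusted p = 0.923). The calls were 85.7% of this list, beside 2.07% of all genes tested.

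The stretches of 250 bases before the start of 4 of these genes are shown because they include a limb-type gene with no overlap (Tbx4), a rise with a PITX-type motif (Isl1), a rise with a HOX-type motif (Meis2) and the largest fall of a Hox gene (Hoxd13). They are from RefSeq, assembly GRCm38.p6, at chr11:85896515-85896764 on the plus strand, chr13:116309689-116309938 on the minus strand, chr2:116064620-116064869 on the minus strand and chr2:74667975-74668224 on the plus strand. Capitals mark the motifs found.
Tbx4: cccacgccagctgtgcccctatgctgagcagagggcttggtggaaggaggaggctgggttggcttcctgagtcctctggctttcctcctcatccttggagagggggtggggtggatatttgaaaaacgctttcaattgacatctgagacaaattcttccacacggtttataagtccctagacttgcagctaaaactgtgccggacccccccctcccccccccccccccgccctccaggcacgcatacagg
Isl1: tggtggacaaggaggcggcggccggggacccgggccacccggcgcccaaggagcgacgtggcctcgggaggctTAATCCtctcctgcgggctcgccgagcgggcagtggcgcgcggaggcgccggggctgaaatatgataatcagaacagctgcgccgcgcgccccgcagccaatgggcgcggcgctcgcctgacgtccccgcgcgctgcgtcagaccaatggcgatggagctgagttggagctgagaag
Meis2: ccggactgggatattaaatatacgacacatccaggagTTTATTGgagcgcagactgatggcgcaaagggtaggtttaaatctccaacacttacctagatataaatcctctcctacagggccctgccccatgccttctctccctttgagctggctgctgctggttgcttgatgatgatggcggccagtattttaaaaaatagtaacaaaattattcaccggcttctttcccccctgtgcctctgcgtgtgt
Hoxd13: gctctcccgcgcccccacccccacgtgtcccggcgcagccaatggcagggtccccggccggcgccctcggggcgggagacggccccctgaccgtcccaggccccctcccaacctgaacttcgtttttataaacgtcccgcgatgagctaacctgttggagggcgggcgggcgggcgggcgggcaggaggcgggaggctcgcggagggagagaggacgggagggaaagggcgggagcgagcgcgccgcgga
Of 30 genes (the 15 largest rises and the 15 largest falls), 18 had a promoter in the table used, and each was searched on both strands for TAATCC, which PITX factors bind, TGACAG, a MEIS site, AGGTGT, the core of a T-box site, and TTTATNG, a site of posterior HOX factors. TAATCC stood in the window of 1 of the 18 genes (Isl1) and in 6.25% of 32851 windows of all genes. TGACAG stood before 2 (Angptl1 and Erg) and in 15.9% of all windows, AGGTGT before 2 (Aldh1a2 and Erg) and in 11.8%, and TTTATNG before 1 (Meis2) and in 9.81%. A gene counted if any of its windows held the letters, and some genes, such as Erg, had several windows. The percentages are of single windows, so the counts of genes and these shares are unlike measures. Tbx4 and Hoxd13 held none of these letters in the window shown. No matches overlapped in the windows shown. These are matches of letters near the start and say nothing of binding.

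HoxC and HoxD genes moved in opposite directions. In the HoxC cluster, whose 5′ genes are active in the trunk at the level of the hindlimb, 6 of 7 tested genes were higher and none lower. That is 85.7% of the list, beside 2.07% of all genes tested. Hoxc10 lay at 8.52, 8.72 and 9.12 in the hindlimb against 4.35, 4.92 and 5.71 in the forelimb, a difference of 3.73 ± 0.18 (adjusted p = 1.66e-09). Hoxc9 differed by 2.01 ± 0.19 and Hoxc8 by 1.61 ± 0.12, and neither overlapped between the populations. Towards the 3′ end the differences on this scale were smaller, at 0.67 ± 0.12 for Hoxc6, 0.85 ± 0.14 for Hoxc5 and 0.91 ± 0.15 for Hoxc4. Other probe sets of Hoxc6 had 0.45 ± 0.12 and 0.25 ± 0.18 (adjusted p = 0.0619 and 0.680). The forelimb means of Hoxc4, Hoxc5 and Hoxc8, at 4.27, 4.85 and 4.91, lay near the 4 of no signal, where differences are understated. Over the alternatives run, Hoxc4 ranged from 0.34 to 2.26 and Hoxc5 from 0.39 to 1.42. Hoxc8 ranged from 0.83 to 2.39 and Hoxc9 from 1.27 to 2.55. The late population split these genes: Hoxc8, Hoxc9 and Hoxc10 were at distal forelimb levels there (medians of 5.00, 5.19 and 4.91), while Hoxc4 and Hoxc5 reached 6.30 and 6.62, above the hindlimb medians of 5.17 and 5.68. The last gene at the 5′ end, Hoxc13, did not pass (0.52 ± 0.29, adjusted p = 0.489). It lay at 7.00 and 6.73 on the BMP4 arrays of replicate 2 at days 1 and 2, and at 4.38 to 5.21 on the other 6 hindlimb arrays. Hoxc11 and Hoxc12 were not among the genes tested.

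The HoxD genes, whose 5′ members pattern the forearm and the digits, were lower from Hoxd8 to Hoxd13. Hoxd13, the gene of the prospective digits, lay at 6.80, 7.52 and 8.07 in the hindlimb and at 8.98, 10.01 and 10.73 in the forelimb, a difference of -2.42 ± 0.23 (adjusted p = 1.75e-05). The differences of the others were -1.35 ± 0.26 for Hoxd12, -1.45 ± 0.14 for Hoxd11, -0.94 ± 0.09 for Hoxd10, -0.48 ± 0.08 for Hoxd9 and -1.19 ± 0.12 for Hoxd8. Thus 6 of 9 tested genes of that list (66.7%, beside 2.07% of all genes tested) were lower and none higher, with a median of -0.94. Hoxd1, Hoxd3 and the neighbouring Evx2 did not pass, at 0.10 ± 0.12, -0.04 ± 0.15 and 0.22 ± 0.13. In the late population these genes did not all lie on the same side. Hoxd13 and Hoxd11 were low in the late population too (medians of 8.31 and 8.11), whereas Hoxd8 there, at 8.99, was at the distal forelimb's 8.90 and above the hindlimb's 7.71.

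Genes of the HoxA cluster share the task of patterning the limb along its length. The 9 tested genes of their list, which also holds Evx1 (-0.11 ± 0.17), gave 0 calls in limma, with a median of 0.0484. An unadjusted p under 0.05 was reached by 4 of them, beside 1958 of all 15139 genes. Hoxa13, the digit gene of the HoxA cluster, had a difference of -0.51 ± 0.18 (adjusted p = 0.230), Hoxa11 of 0.20 ± 0.08 (adjusted p = 0.335) and Hoxa10 of 0.43 ± 0.11 (adjusted p = 0.0554). Hoxa5, at 0.37 ± 0.10 (adjusted p = 0.0838), passed with the replicate number in the block (adjusted p = 0.0355). In the HoxB cluster 2 of 8 (25%, beside 2.07% of all genes tested) were higher. Hoxb9 lay at 4.84, 5.92 and 6.96 against 4.42, 4.56 and 5.34 (1.34 ± 0.18, adjusted p = 0.000591), and Hoxb3 at 5.99, 6.26 and 7.03 against 5.32, 5.75 and 6.09 (0.63 ± 0.13, adjusted p = 0.0135), with another probe set of Hoxb3 at 0.03 ± 0.18 (adjusted p = 0.983). Both overlapped between the populations.

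**Figure D3:**
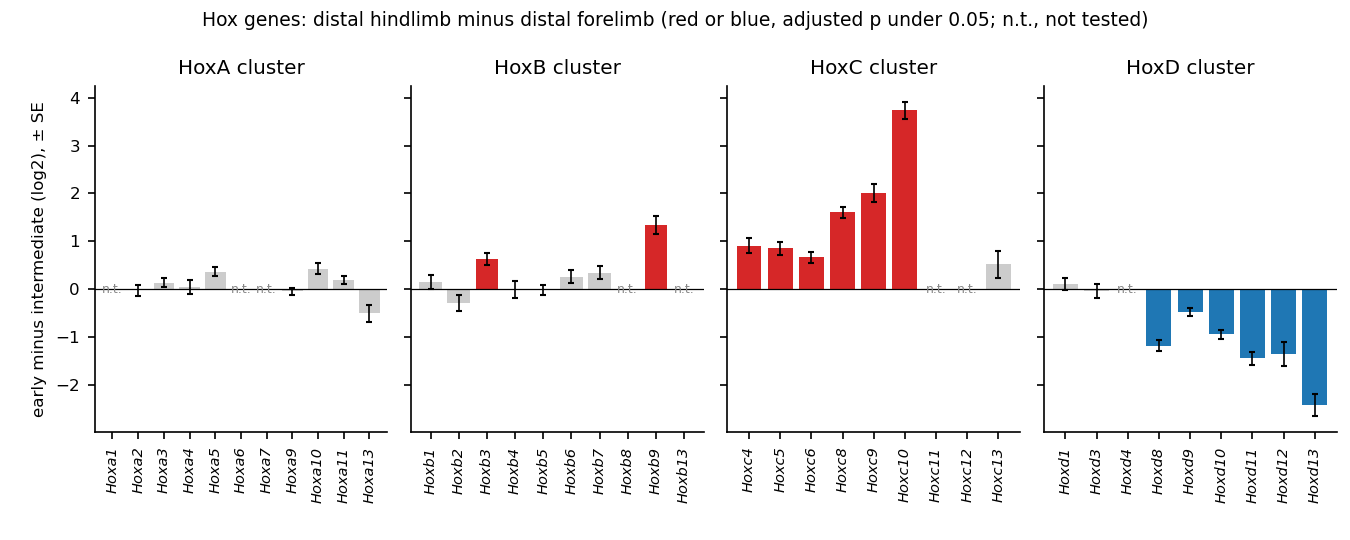
Early minus intermediate difference (log2, bars, with SE) of the Hox genes of the 4 clusters in the order of their numbers. Red and blue bars passed an adjusted p of 0.05, and n.t. marks genes that were not tested. HoxC genes from Hoxc4 to Hoxc10 are higher and HoxD genes from Hoxd8 to Hoxd13 lower in the hindlimb.

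Several transcription factors of the proximal and anterior limb bud were also higher in the hindlimb, while Gli3 and Zic5 of the anterior list were lower, as given below. Meis2, a TALE-homeodomain factor, lay at 9.52, 10.22 and 11.10 in the hindlimb and at 7.39, 7.89 and 8.58 in the forelimb (2.39 ± 0.19, adjusted p = 2.06e-06). Meis1 lay at 8.32, 9.16 and 9.36 against 6.21, 6.88 and 7.67 (2.10 ± 0.23, adjusted p = 8.62e-05), but its other probe sets, which were dimmer, differed by 0.51 ± 0.14 (adjusted p = 0.0805) and 0.17 ± 0.14 (adjusted p = 0.715). Neither overlapped, and for both the late population, with medians of 9.77 and 8.33, was on the hindlimb's side. Meis3 was higher by 0.98 ± 0.20 (adjusted p = 0.0163). The Iroquois genes Irx5 and Irx3, neighbours on chromosome 8, rose by 1.45 ± 0.17 (adjusted p = 0.000130) and 0.84 ± 0.19 (adjusted p = 0.0290), and the call of Irx3 was lost when any of 7 of the 16 arrays was left out. Irx6, on the other side of Irx5, had a difference of 0.09 and did not pass. Nr2f1, an orphan nuclear receptor also named COUP-TF1, was higher by 1.39 ± 0.14 without overlap (adjusted p = 2.10e-05). Of 15 tested genes listed for the proximal limb and girdle, 6 (40%, beside 2.07% of all genes tested) were higher and none lower, with a median of 0.205. Among them Shox2, a homeodomain factor of the upper limb, differed by 0.81 ± 0.19 (adjusted p = 0.0349), a call lost with the replicate number in the block (adjusted p = 0.0508) or when any of 11 of the 16 arrays was left out.

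Tbx2, a T-box repressor of the limb margins, rose by 1.53 ± 0.26 (adjusted p = 0.00376). Its levels of 5.79, 7.55 and 9.03 in the hindlimb overlapped those of 5.20, 5.47 and 7.92 in the forelimb. It is the nearest protein-coding neighbour of Tbx4 on chromosome 11. The genes on the other side, Brip1 and Ints2, had differences of 0.21 and 0.05 and did not pass. Tbx3, the corresponding neighbour of Tbx5 on chromosome 5, had a difference of 0.68 ± 0.20 (adjusted p = 0.100). In the late population Tbx2 and Tbx3 had medians of 7.72 and 8.06.

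The 15 largest rises also held genes outside the limb lists. Penk, which encodes the enkephalin precursor, lay at 7.34, 8.60 and 10.49 against 5.39, 6.81 and 8.29 (1.86 ± 0.24, adjusted p = 0.000428). Edil3, an integrin ligand of the extracellular matrix, rose by 1.76 ± 0.22 (adjusted p = 0.000317), with another probe set at 0.05 ± 0.15 (adjusted p = 0.951). The polysialyltransferase St8sia4 rose by 1.97 ± 0.31 (adjusted p = 0.00272), chiefly on the BMP4 arrays as described further on. All 3 overlapped between the populations.

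**Figure D4:**
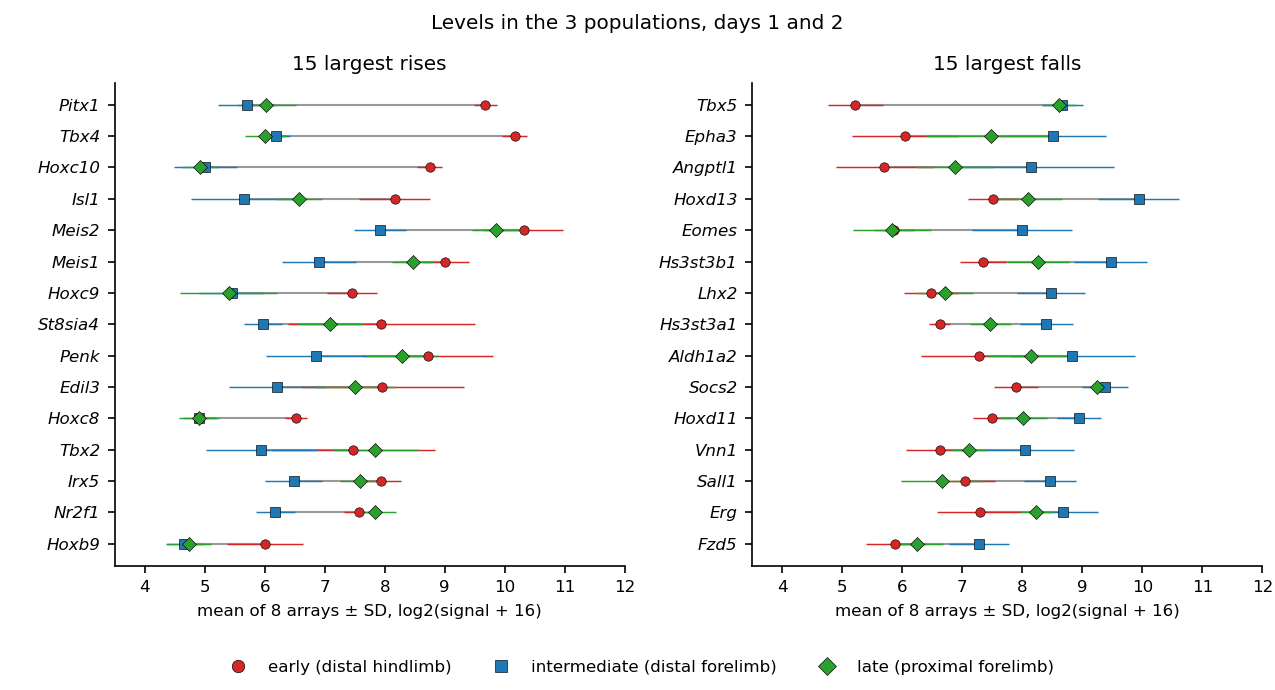
Mean level ± SD of 8 arrays, as log2(signal + 16), in the early, intermediate and late populations for the 15 largest rises and the 15 largest falls. For Pitx1, Tbx4, Hoxc8 to Hoxc10, Hoxb9, Tbx5 and Socs2 the late mean lies at the intermediate mean, and for Meis2, Irx5, Nr2f1, Lhx2, Sall1, Eomes and Fzd5 it lies near the early mean.

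Genes lower in the hindlimb included factors of the distal tip. Lhx2, a LIM-homeodomain factor that relays signals of the apical ridge to the mesenchyme, lay at 5.95, 6.47 and 7.15 in the hindlimb and at 7.71, 8.28 and 9.24 in the forelimb (-1.99 ± 0.13, adjusted p = 1.97e-07). Sall1, a zinc-finger factor of the distal bud, lay at 6.29, 7.21 and 7.60 against 7.80, 8.54 and 9.05 (-1.42 ± 0.15, adjusted p = 6.75e-05). Neither overlapped, and the late population, with medians of 6.85 and 6.61, was again on the hindlimb's side. Jag1, a Notch ligand, fell by 0.83 ± 0.15 (adjusted p = 0.00665), but another of its probe sets differed by only 0.01 ± 0.13 (adjusted p = 0.993). These 3 were the calls among 14 genes listed for distal progenitors (21.4%, beside 2.07% of all genes tested), whose median was -0.258. Lhx9, a LIM-homeodomain relative of Lhx2 on that list, had a difference of -0.53 ± 0.14 (adjusted p = 0.0662) and passed with the replicate number in the block (adjusted p = 0.01005). Msx1 and Msx2, which share that list, had differences of 0.08 ± 0.19 and -0.26 ± 0.26. Of 8 genes listed for the anterior bud 50% were called: Irx3 and Irx5 were higher, as above, and 2 were lower, with a median of 0.0106. Gli3, which represses hedgehog targets there, differed by -0.50 ± 0.09 (adjusted p = 0.00508) and the zinc-finger gene Zic5 by -0.70 ± 0.12 (adjusted p = 0.00554). Other probe sets of Gli3 did not pass, at -0.34 ± 0.13 and -0.52 ± 0.13 (adjusted p = 0.293 and 0.0665). Nor did those of Zic5, at -0.43 ± 0.15 and -0.50 ± 0.16 (adjusted p = 0.241 and 0.158).

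Several of the strongest falls were outside the limb lists. Epha3, an ephrin receptor, lay at 4.67, 6.12 and 7.02 against 7.18, 8.49 and 9.71 (-2.46 ± 0.36, adjusted p = 0.00130). Angptl1, a secreted angiopoietin-like protein, differed by -2.45 ± 0.34 (adjusted p = 0.000743), with 1 of its other probe sets at 0.17 ± 0.14 (adjusted p = 0.740) and another at -2.14 ± 0.33 (adjusted p = 0.00206). Eomes, a T-box factor, differed by -2.13 ± 0.26 (adjusted p = 0.000194). Its levels of 5.16, 5.93 and 6.27 met the forelimb's 6.20, 8.27 and 8.79 at the edge, and its late median was 6.05. Hs3st3b1 and Hs3st3a1, which encode closely related heparan sulfate sulfotransferases, differed by -2.12 ± 0.21 (adjusted p = 1.88e-05) and -1.78 ± 0.13 (adjusted p = 7.37e-07), both without overlap. They lie on chromosome 11 with a single protein-coding gene, Cox10, between them, and Cox10 had a difference of 0.02 (adjusted p = 0.952). Socs2, a suppressor of cytokine signalling, lay at 7.28, 8.01 and 8.30 against 8.80, 9.42 and 9.88 (-1.48 ± 0.15, adjusted p = 4.01e-05), and its late range of 9.12 to 9.35 was inside the distal forelimb's. Of its 4 other probe sets 3 were lower too, and the other differed by -0.01 ± 0.11 (adjusted p = 0.991). Vnn1, which encodes a pantetheinase, differed by -1.42 ± 0.25 (adjusted p = 0.00508).

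The signalling lists of the limb bud differed in how many genes passed: 23.5% of the BMP ligand, receptor and SMAD list, 21.7% of the WNT list and 16.7% of the retinoid list, against 2.07% of all genes tested, but no gene of the BMP target and FGF lists. Among 21 BMP target and feedback genes, 0 passed in limma (5 at an unadjusted p under 0.05, beside 1958 of all 15139 genes), at a median of -0.0695. Id1, a direct target, had a difference of -0.26 ± 0.11 (adjusted p = 0.326), and Smad7 of -0.09 ± 0.13 (adjusted p = 0.841). Chrdl1, a secreted BMP antagonist, had a difference of -0.99 ± 0.32 (adjusted p = 0.163) and passed with the replicate number in the block (adjusted p = 0.0109). Among 17 genes of BMP ligands, receptors and SMADs, Bmp5 was higher by 0.69 ± 0.11 (adjusted p = 0.00288), while the receptor Bmpr1b (-1.34 ± 0.23, adjusted p = 0.00462), the joint ligand Gdf5 (-1.08 ± 0.21, adjusted p = 0.00932) and Bmp7 (-1.31 ± 0.29, adjusted p = 0.0244) were lower. Without any 1 of 4 arrays Bmp7 no longer passed, at adjusted p up to 0.0590. Other probe sets of Bmp5 did not pass, at 0.41 ± 0.15 and 0.48 ± 0.15 (adjusted p = 0.242 and 0.151).

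Of 23 WNT genes, 1 was higher and 4 lower, or 1 and 6 with the replicate number in the block. The receptor Fzd5 lay at 5.43, 5.68 and 6.72 against 6.44, 7.40 and 7.90 (-1.39 ± 0.12, adjusted p = 6.97e-06), with another probe set at -0.57 ± 0.16 (adjusted p = 0.103). Wnt5a, the ligand of distal outgrowth, differed by -0.55 ± 0.12 (adjusted p = 0.0186). Another of its probe sets passed (-0.64 ± 0.15, adjusted p = 0.0461), but those at -0.56 ± 0.16 (adjusted p = 0.112) and -0.13 ± 0.12 (adjusted p = 0.744) did not. The WNT antagonist Dkk3 differed by -0.84 ± 0.18 (adjusted p = 0.0199). Dkk3 no longer passed without early day 2 BMP4 replicate 1 (adjusted p = 0.0535). Sfrp1, a secreted antagonist, rose by 0.46 ± 0.11 (adjusted p = 0.0413), a call lost when any of 14 of the 16 arrays was left out. Frzb, another, differed by -0.49 ± 0.12 (adjusted p = 0.0405), but not with the replicate number in the block (adjusted p = 0.0508) or when any of 11 of the 16 arrays was left out. The antagonist Wif1 (-0.87 ± 0.38, adjusted p = 0.351), the WNT agonist Rspo3 (-0.56 ± 0.17, adjusted p = 0.121) and the ligand Wnt5b (-0.65 ± 0.21, adjusted p = 0.146) passed with that block, at adjusted p = 0.000534, 0.0412 and 0.0371.

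Fibroblast growth factor genes gave 0 calls of 17 in limma (5 at an unadjusted p under 0.05, beside 1958 of all 15139 genes), with Fgf10 at 0.22 ± 0.24 and Fgfr3 at -0.53 ± 0.17 (adjusted p = 0.161, and 0.0254 with the replicate number in the block). In the list for hedgehog signalling and the posterior bud, Tbx2 was the 1 call of 15 (6.67%, beside 2.07% of all genes tested). Shh itself had a difference of 0.66 ± 0.31 (adjusted p = 0.375), its receptor Ptch1 of -0.16 ± 0.30 and its target Gli1 of 0.16 ± 0.23. In the retinoid list 2 of 12 were lower: Aldh1a2, which makes retinoic acid, differed by -1.55 ± 0.31 (adjusted p = 0.0113) with overlapping arrays, and Dhrs3 by -0.83 ± 0.20 (adjusted p = 0.0413). The call of Dhrs3 was lost when any of 11 of the 16 arrays was left out. Crabp1, a retinoic acid binding protein, had 0.92 ± 0.25 (adjusted p = 0.0767, and 0.0164 with the replicate number in the block).

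The cartilage matrix and chondrogenic factor lists had negative median differences, and no single gene of the matrix list passed. Sox9, the master factor of chondrogenesis, lay at 8.06, 9.58 and 9.91 in the hindlimb and at 9.16, 9.47 and 10.10 in the forelimb (-0.26 ± 0.23, adjusted p = 0.717). Col2a1, the main cartilage collagen, lay at 10.05, 11.51 and 11.99 against 11.48, 11.79 and 12.17 (-0.51 ± 0.22, adjusted p = 0.318). The proteoglycan gene Acan lay at 5.98, 6.67 and 8.49 against 6.95, 8.05 and 8.96 (-0.82 ± 0.28, adjusted p = 0.182). The populations overlapped for all 3. Over the alternatives run, Sox9 ranged from -0.80 to 0.28, Col2a1 from -0.99 to -0.03 and Acan from -1.61 to -0.03. Over 23 matrix genes the median was -0.439, beside 0.0181 over all genes. In limma 0 of the 23 were called either way, and 10 had an unadjusted p under 0.05, beside 1958 of all 15139 genes. Matn4 had the lowest value of that list, -1.39 ± 0.45 (adjusted p = 0.153), and Hapln1 the highest, 0.614. The difference of Matn4 ranged from -2.68 to -0.11 over the alternatives. Among 10 chondrogenic transcription factors, whose median was -0.475, 10% were called, beside 2.07% of all genes tested. Foxc1 was lower (-1.02 ± 0.24, adjusted p = 0.0347), a call lost when any of 7 arrays was left out. Sox5 had -0.65 ± 0.18 (adjusted p = 0.0883, and 0.0142 with the replicate number in the block). Of 8 genes of cartilage maturation and bone, whose median was 0.0599, 0 passed in limma and 1 had an unadjusted p under 0.05.

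Joint and tendon genes gave a few calls, 30% and 11.8% of their lists, beside 2.07% of all genes tested. The joint markers Gdf5, Erg (-1.40 ± 0.28, adjusted p = 0.0114) and Osr2 (-0.96 ± 0.24, adjusted p = 0.0462) were lower among 10 of that list, whose median was -0.0639. In the tendon and fibrous list, Col3a1, a collagen of loose connective tissue, was higher at 11.50, 11.998 and 12.16 against 10.38, 11.33 and 11.50 (0.71 ± 0.09, adjusted p = 0.000428). Mkx, a tendon homeodomain factor, differed by -1.27 ± 0.31 (adjusted p = 0.0435). With the replicate number in the block, 2 of the 17 tendon genes were lower, Mkx and Egr2. The calls of Osr2 and Mkx were lost when any of 13 and 12 of the 16 arrays, respectively, was left out.

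Of 12 genes of general limb mesenchyme 1 passed (8.33%, beside 2.07% of all genes tested), which was Meis2, and Prrx1 had a difference of -0.07 ± 0.09 (adjusted p = 0.821). In bulk RNA, fewer cells of a type and less RNA per cell cannot be told apart. In limma 0 of 23 skeletal muscle, 14 macrophage, 15 ectoderm, 23 cell cycle and 13 embryonic timing genes passed, with 4, 2, 3, 1 and 2 of them, in that order, at an unadjusted p under 0.05. Over all genes tested that p was reached by 1958 of 15139. Likewise 0 of 14 smooth muscle, 9 red blood cell, 11 trunk and tail and 4 sex-linked genes passed, and 0 of these had an unadjusted p under 0.05. Myod1 had -0.21 ± 0.37, Krt5 0.21 ± 0.28, Tyrobp -0.09 ± 0.12 and Hmga2 0.20 ± 0.07. Another probe set of Hmga2 passed (0.34 ± 0.07, adjusted p = 0.0174), but those at 0.44 ± 0.15 (adjusted p = 0.187) and 0.20 ± 0.12 (adjusted p = 0.614) did not. Krt8 of the ectoderm list had 0.47 ± 0.15 (adjusted p = 0.153). Its other probe sets passed, at 0.73 ± 0.16 (adjusted p = 0.0277) and 0.90 ± 0.20 (adjusted p = 0.0265). In the nerve list of 9, Isl1 was the 1 call (11.1%), and the Schwann cell gene Sox10 had 0.18 ± 0.11 (adjusted p = 0.535). Of 16 endothelial genes, 3 (18.8%) were lower: Eng (-0.97 ± 0.12, adjusted p = 0.000182), Flt1 (-0.70 ± 0.12, adjusted p = 0.00558) and Erg. Other probe sets of Flt1 did not pass, at -0.42 ± 0.20, -0.60 ± 0.16 and -0.22 ± 0.14 (adjusted p = 0.424, 0.0767 and 0.595). The summed signal of these 16 genes was 703 to 893 in the hindlimb and 915 to 1541 in the forelimb without overlap. Without Eng, Flt1 and Erg, the other 13 summed to 422.5 to 527 in the hindlimb and 388.9 to 551.3 in the forelimb, which overlap. The defining markers Pecam1 and Cdh5 had differences of 0.11 ± 0.15 and 0.26 ± 0.13 and did not pass. The part of endothelial cells in the values of Eng, Flt1 and Erg was not tested. With the replicate number in the block, Perp, a junction protein of the ectoderm list (0.48 ± 0.16), and Slc2a1, a glucose transporter (0.46 ± 0.12), passed at adjusted p = 0.0102 and 0.0154. Vegfa was the 1 call of 16 hypoxia and glycolysis genes (0.42 ± 0.10, adjusted p = 0.0439), and Jun, at -0.67 ± 0.16 (adjusted p = 0.0440), the 1 call of 18 immediate early genes. These calls were 6.25% and 5.56% of their lists. Leaving out any of 13 arrays for Vegfa and any of 12 for Jun ended these calls, and Jun did not pass with the replicate number in the block (adjusted p = 0.0512).

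Array level and RNA integrity were compared as well. Median signal per array was 34.6 to 46.4, and the difference of the median level between the populations was 0.07 on the log2 scale (exact permutation test within day and treatment, two-sided p = 0.113). The 3′ over 5′ ratio of Gapdh differed by -0.01 (exact permutation p = 0.895) and that of Actb by 0.05 (exact permutation p = 0.136). At day 0, which is not part of the comparison, 2 arrays (early replicate 2 and intermediate replicate 2) went against their labels for Pitx1, Tbx4 and Tbx5. No array of days 1 and 2 did.

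Within single combinations of day and treatment, where 2 arrays met 2, fewer genes passed. There were 15 (0.0991%) at day 1 in control medium, 75 (0.495%) at day 1 with BMP4, 25 (0.165%) at day 2 in control medium and 84 (0.555%) at day 2 with BMP4. These counts moved with single arrays. Leaving out 1 of its 4 arrays brought the first count to between 4 and 11, the second to between 22 and 113, the third to between 4 and 20 and the fourth to between 11 and 77, and intermediate replicate 1 gave the lowest number in all 4, equalled by early replicate 1 at day 1 in control medium. No gene passed for a change of the population difference from day 1 to day 2 (0 of 15139 in limma, with 605 at an unadjusted p under 0.05 and a smallest adjusted p of 0.25). The differences of Pitx1 and Tbx4 across the 4 combinations were 3.59 to 4.32 and 3.79 to 4.17, and those of Hoxd13 were -2.63 to -2.33. Epha3 ranged more widely, from -3.37 to -0.85.

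BMP4 changed the difference between the populations for 16 genes (0.106%), 8 (0.0528%) towards the hindlimb and 8 (0.0528%) towards the forelimb, with 1255 genes at an unadjusted p under 0.05. Centring each array on its median gave 25 genes, 7 towards the hindlimb and 18 towards the forelimb. With the replicate number in the block the count was 132 (76 and 56). Without intermediate day 1 BMP4 replicate 2 it was 57 and without early day 2 BMP4 replicate 1 it was 41. It was 10 without intermediate day 1 BMP4 replicate 1, without early day 1 BMP4 replicate 2 or without early day 2 BMP4 replicate 2, and 9 without early day 2 control replicate 2. Of the 16 genes, 2 (St8sia4 and Zfp804a, named after its value was seen) were also among the 314.

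Gata6, a zinc-finger factor, showed the largest such change. In the hindlimb it lay at 5.87, 6.06, 5.87 and 5.87 on the control arrays and at 8.56, 8.78, 8.61 and 9.15 on the BMP4 arrays. In the forelimb it lay at 6.98, 6.54, 6.78 and 7.02 on the control arrays and at 6.71, 7.45, 6.23 and 6.64 on the BMP4 arrays. Every hindlimb array was thus below every forelimb array in control medium and above every forelimb array with BMP4. The difference with BMP4 minus that in control medium was 2.93 ± 0.26 (adjusted p = 0.000371).

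St8sia4 lay at 6.54, 6.30, 6.56 and 6.60 on the hindlimb control arrays and at 9.92, 9.08, 9.18 and 9.37 with BMP4. Its forelimb arrays lay at 5.52 to 5.78 in control medium and at 6.05 to 6.44 with BMP4. Its change was 2.34 ± 0.24 (adjusted p = 0.00116). Gpr22, an orphan receptor, Ralyl, an RNA-binding protein, and Slitrk5, a neuronal membrane protein, also differed more towards the hindlimb with BMP4. Gpr22 was at 4.22 to 4.32 on the hindlimb control arrays and at 6.09 to 7.27 with BMP4, and at 4.11 to 4.62 on all forelimb arrays (2.23 ± 0.28, adjusted p = 0.00448). Ralyl changed by 2.11 ± 0.25 (adjusted p = 0.00408) and Slitrk5 by 1.86 ± 0.21 (adjusted p = 0.00253). Over the alternatives run, the pooled difference ran from -0.37 to 1.49 for Slitrk5 and from 0.80 to 3.14 for St8sia4. Among these 16 arrays, those of the hindlimb with BMP4 were the high ones for Gpr22 and Ralyl.

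In the other direction, Sparcl1, a matrix protein related to SPARC, lay in the forelimb at 7.91, 7.93, 7.42 and 7.43 on the control arrays and at 9.88, 9.31, 9.02 and 9.05 with BMP4. In the hindlimb it lay at 7.92, 7.95, 8.10 and 8.38 on the control arrays and at 7.51, 7.07, 7.82 and 7.69 with BMP4. The forelimb arrays with BMP4 were the high ones, and the hindlimb arrays with BMP4 were below those in control medium on each day (-2.21 ± 0.19, adjusted p = 0.000371). For the ubiquitin ligase gene Trim47 the low arrays were those of the hindlimb with BMP4, at 4.55 to 5.65 against 5.81 to 7.85 in control medium (-1.83 ± 0.23, adjusted p = 0.00448). Chst15, a chondroitin sulfate sulfotransferase, changed by -1.48 ± 0.21 (adjusted p = 0.0136). The WNT effector Tcf7l2 (-1.33 ± 0.21) and the mesenchymal factor Twist2 (-1.24 ± 0.19) passed at adjusted p = 0.0270 each. Their calls were lost when any of 11 and 10 of the 16 arrays, respectively, was left out, at adjusted p up to 0.104 and 0.117, and that of Chst15 without early day 2 control replicate 2 (adjusted p = 0.0524).

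**Figure D5:**
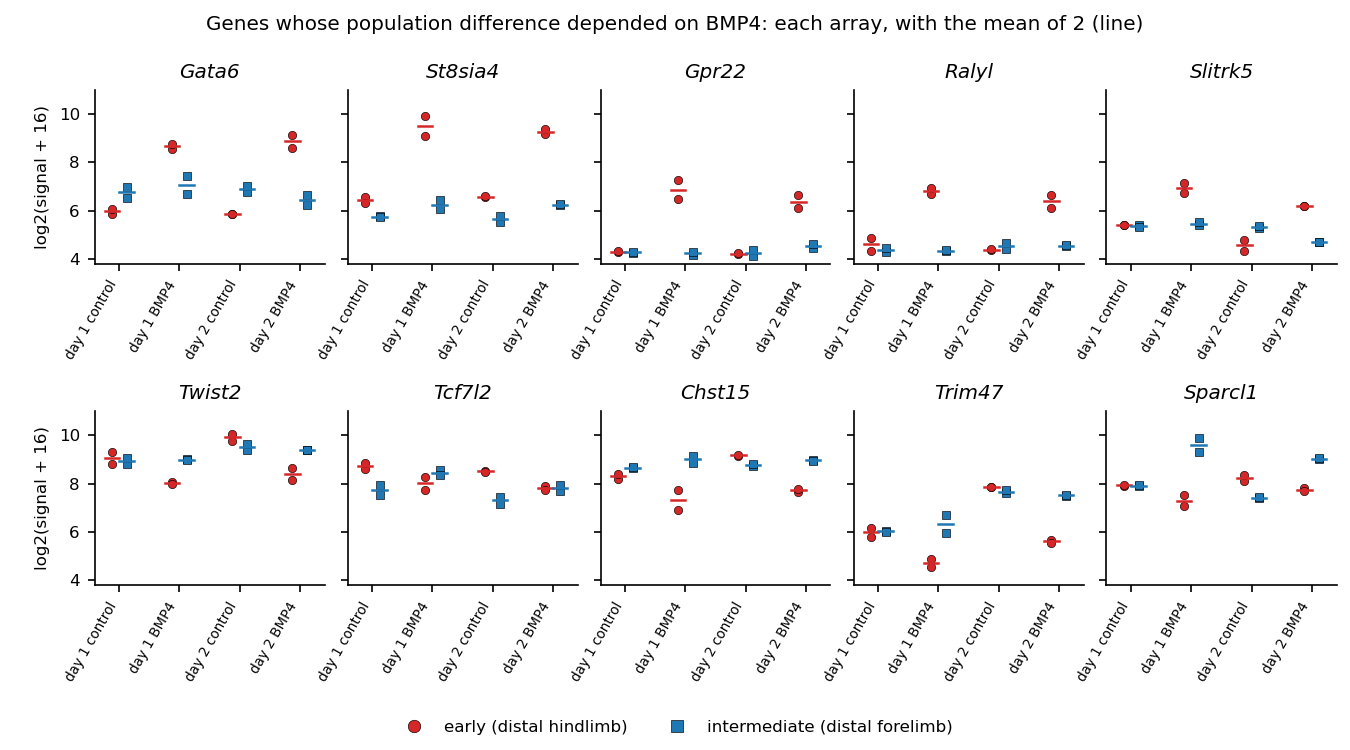
Level of 10 genes whose difference between the populations depended on BMP4, as log2(signal + 16), on each array by day and treatment, with the mean of 2 arrays as a line. Gata6, St8sia4, Gpr22, Ralyl and Slitrk5 are high in hindlimb cultures with BMP4, and Sparcl1 is high in forelimb cultures with BMP4.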

How the data were processed

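The deposited linear signal intensity comes from MAS5, as the submitters' processing notes name it, on Affymetrix mouse arrays. No source used here gives the settings of MAS5. Each deposited array has a trimmed mean of 150. Values were used as log2(signal + 16). Probe sets above their array's 40th percentile (a signal of 20.2 to 30.5) on at least 2 of 30 arrays were kept, and the brightest per gene symbol gave 15139 genes. Symbols came from the platform annotation: of 45101 probe sets, 34945 had 1 symbol, 932 several and 9160 none, and 34754 matched a gene table of GRCm38.p6.

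Tests used limma 3.58.1 in R 4.3.3 (lmFit, eBayes with a trend), two-sided, with Benjamini-Hochberg adjustment over all genes at 0.05: day and treatment as a block for the pooled comparison, 8 group means for single combinations and their differences, and 12 group means over 24 arrays for the late population. The code was tested on simulated data. Deviations of same-numbered replicates correlated at 0.349, 0.338, 0.190 and 0.219 in the 4 combinations, so the numbers were taken as pairs from the data; the labels do not say what a number marks, nor whether replicates came from separate litters, so p-values measure the spread between these arrays. The number of arrays limits the precision. The pooled fit took all arrays of a population as separate units within the block. Arrays of a population with the same number may share a preparation of cells across days and treatments, which was not tested. If they do, the independent units are fewer than the arrays, and the pooled standard errors and p-values may be too small. For 36 of 59 named and called genes other probe sets were kept: 56 of these 58 probe sets had the same sign, and 31 passed. Members, lists and tests were chosen with earlier results of these data known.

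The text names the 15 largest rises and falls, the 5 largest changes each way with BMP4, up to 4 genes of each of 34 lists, the Hox genes, Pitx1, Tbx4, Tbx5, Sox9, Col2a1 and Acan; neighbours of the T-box, Irx and Hs3st3 genes and further list members were added after their values were seen. Alternatives were other pseudocounts, filters, scalings, probe-set rules, arrays in the fit, the replicate block and leaving out each array.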

Additional observations from a re-analysis of the deposited data

Results flagged for a closer look

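For 10 genes the difference between distal hindlimb and distal forelimb cultures itself differed between BMP4 and control medium, by limma's test of that interaction over 8 group means. The change (difference with BMP4 minus difference in control medium, log2) was 2.93 for Gata6, 2.34 for St8sia4, 2.23 for Gpr22, 2.11 for Ralyl and 1.86 for Slitrk5, and -2.21 for Sparcl1, -1.83 for Trim47, -1.48 for Chst15, -1.33 for Tcf7l2 and -1.24 for Twist2. With 2 arrays in each labelled group, no group was large enough to look for single outlying arrays.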

How the results depend on the processing

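Of 59 named genes past the threshold in the pooled comparison, 49 kept the call whichever of the 16 arrays was left out, and none changed sign under any alternative run. The pooled count of 314 genes was 549 in a fit of 24 arrays and 493 in a fit of all 30. These fits also used group means in place of the block, and the cause was not tested. With the replicate block the pooled count was 486. It was 117 on control arrays only, 175 on BMP4 arrays only, 29 on day 1 and 55 on day 2 arrays only, where fewer arrays enter, and 213 to 332 with 1 array left out. On control arrays only, Gata6, not called in the pooled comparison, turned to -0.91. For single combinations, leaving out 1 array gave 4 to 11 genes at day 1 in control medium, 22 to 113 at day 1 with BMP4, 4 to 20 at day 2 in control medium and 11 to 77 at day 2 with BMP4. The fit of 30 arrays gave 8 at day 1 in control medium, 57 at day 2 in control medium and 201 at day 2 with BMP4. A pseudocount of 64 gave 46 at day 2 in control medium and 131 at day 2 with BMP4, where a pseudocount of 1 gave 52 and no filter 54; the cause was not tested. The BMP4 dependence count of 16 was 25 (7 and 18) with median centring, 65 in the fit of 30 arrays, 132 with the replicate block and 9 to 57 with 1 array left out, and the cause was not tested beyond these values. The block changed no other call of a gene named with its values than those given with it, and a change between days was called for 0 genes under every alternative run. Settings applied to single combinations and to the changes with day and BMP4 beyond those planned were chosen after seeing the data. Median centring moved the median difference of all genes from 0.0181 to -0.0497. Without detection calls, dim genes could not be told from absent ones.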

Other observations

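Limits: the labels place the hindlimb and forelimb cells at different distal shares of the bud, 2 arrays stand in each labelled group, and array signals cannot tell splice forms or cell types apart. Of 36 named called genes with another probe set, 58 other probe sets were fitted: 56 shared the sign, 31 also passed, and 0 passed in the opposite direction.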
